A study of Mus musculus with 12 samples.

Results

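Genomic imprinting leaves only the maternal or only the paternal copy of a gene active, through DNA methylation marks set in the germ line. Imprinted genes sit in clusters, where a growth-promoting paternal gene often lies beside a maternal growth inhibitor or a maternal noncoding RNA, and many of them are strongly expressed in embryonic tissue and in the nervous system. The 10 imprinted genes described here were taken by their symbols and not by a threshold on their values: the growth factor gene *Igf2* and its neighbour *H19*, the cell cycle inhibitor gene *Cdkn1c*, the 4 genes *Dlk1*, *Meg3*, *Rian* and *Mirg* of one cluster, and *Peg3*, *Peg10* and *Snrpn*. All 10 were found among the 45777 genes of the tables. In mm10 (GRCm38) *H19* (chr7:142575530-142578146), *Igf2* (chr7:142650768-142666816) and *Cdkn1c* (chr7:143458339-143461059) lie near the end of chromosome 7, *Snrpn* (chr7:59982495-60450177) and *Peg3* (chr7:6703892-6730462) elsewhere on it, and *Peg10* (chr6:4747306-4760517) on chromosome 6. *Dlk1* (chr12:109452485-109463336), *Meg3* (chr12:109540996-109571729), *Rian* (chr12:109603945-109661716) and *Mirg* (chr12:109734981-109749458) lie in a row on chromosome 12. Parent of origin cannot be read from these values, which sum both copies.

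The genes were measured by bulk RNA-seq of embryonic mouse spinal cord (E12.5), with 12 libraries in 4 groups of 3. Ventral tissue was cut out around *Hb9::GFP*, a transgenic reporter that marks motor neurons (MNs) and that embryos of every group carried. The groups were brachial *Isl2* +/- (Het), brachial *Isl2* KO, lumbar *Isl2* +/- (Het) and lumbar *Isl2* KO. *Isl2* encodes a LIM homeodomain transcription factor of MNs, the KO is a germline null, and the controls carry 1 null copy, so no group is wild type. The dissected tissue still holds progenitors, interneurons, vessels and blood cells beside MNs.

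Levels are given as TPM (a share of the transcripts of a library, corrected for transcript length), rescaled so that the typical gene has the same level in every library, and differences as log2 of (TPM + 0.1) from limma. The libraries rest on 4.48 to 6.64 gigabases of aligned reads. *Isl2* RNA was lower in all KO than in all Het libraries of its level, by 0.59 (log2, SE 0.18, adjusted p = 0.354, limma) in brachial and by 0.34 (SE 0.13, adjusted p = 0.999) in lumbar tissue, but was still counted at 4.54 to 8.26 TPM in the KO libraries. The pan-neuronal marker sum was 4131 to 5493 TPM and the sum of 6 MN markers 154 to 479 TPM, and *Col2a1*, a collagen gene of cartilage and other tissues, averaged 37.7 TPM. Of the 6 muscle markers *Mylpf* (3.70 TPM) and *Tnnt1* (0.79 TPM) averaged at least 0.5 TPM and *Myod1*, *Myog* and *Myf5* under 0.1 TPM, as did *Acan*, *Matn1* and *Snorc* of the 5 cartilage markers. Brachial KO replicate 3 stood apart from the other libraries, with the lowest depth (4.48 gigabases) and the highest sum of 6 red blood cell markers (6013 TPM, against 1934 to 4214 TPM in the others). Brachial KO replicate 2 had the largest size factor (1.23, against 0.905 to 1.07 in the others) and the smallest share of TPM in small RNAs (23.7%, against 30.9% to 38.2%). The design description and the methods give 3 animals of each genotype, so brachial and lumbar tissue may come from the same animals, but they do not say which. By *Xist* and Y-linked genes, 1 of 3 brachial Het and 2 of 3 lumbar Het libraries were female, so the 6 Het libraries cannot all come from the same 3 embryos, each giving both levels, and 3 of the 6 same-numbered brachial and lumbar pairs differed in sex. Libraries were therefore treated as unpaired, and p-values between levels take as independent libraries that may share an embryo.

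The small RNAs printed here are shown because 4 of the genes are noncoding transcripts whose spans hold microRNA hairpins, so that the host and its products can be read side by side. The RefSeq table of mature microRNAs (GRCm38.p6) matched 1 hairpin with 2 mature microRNAs inside *H19*, 2 hairpins with 3 inside *Meg3*, 3 hairpins with 6 inside *Rian*, and 10 hairpins with 19 inside *Mirg*. Capitals mark the seed, bases 2 to 8, which pairs with target RNAs. The first pair comes from the *H19* hairpin *Mir675*, and the next 2 are the only ones of these mature microRNAs that share a seed. The last pair comes from *Mir154*, the one *Mirg* hairpin called between levels (adjusted p = 0.0444, limma), though its reads can also belong to *Mirg*.
mmu-miR-675-5p (chr7:142577112-142577133, minus strand): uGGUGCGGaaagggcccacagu
mmu-miR-675-3p (chr7:142577078-142577099, minus strand): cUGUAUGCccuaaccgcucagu
mmu-miR-453 (chr12:109735669-109735692, plus strand): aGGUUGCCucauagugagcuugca
mmu-miR-496a-5p (chr12:109739132-109739152, plus strand): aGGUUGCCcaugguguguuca
mmu-miR-154-5p (chr12:109738438-109738459, plus strand): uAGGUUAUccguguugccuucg
mmu-miR-154-3p (chr12:109738474-109738495, plus strand): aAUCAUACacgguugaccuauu

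The 10 genes spanned a wide range of RNA levels. *Rian* was the most abundant at 523 ± 55.9 TPM (SD, n = 12 libraries) and ranked 173 of the 16706 genes with a mean of at least 0.5 TPM, followed by *Cdkn1c* at 375 ± 75.3, *H19* at 204 ± 24.7 and *Meg3* at 179 ± 43.1 TPM. *Peg3* averaged 71.1 ± 11.9, *Snrpn* 31.4 ± 9.05 and *Mirg* 31.2 ± 3.81 TPM. *Dlk1* averaged 15.8 ± 4.67, *Peg10* 9.29 ± 4.2 and *Igf2* 5.09 ± 1.43 TPM, which placed *Igf2* at rank 10985. In this order the 12-library ranges of *Rian* and *Cdkn1c*, *H19* and *Meg3*, *Snrpn* and *Mirg*, *Dlk1* and *Peg10*, and *Peg10* and *Igf2* overlapped. The ranges of *Cdkn1c* and *H19*, *Meg3* and *Peg3*, *Peg3* and *Snrpn*, and *Mirg* and *Dlk1* did not overlap. Libraries of 1 group varied least for *Rian*, with a pooled within-group SD of 0.14 on the log2 scale, and most for *Peg10*, with 0.45.

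**Figure D1:**
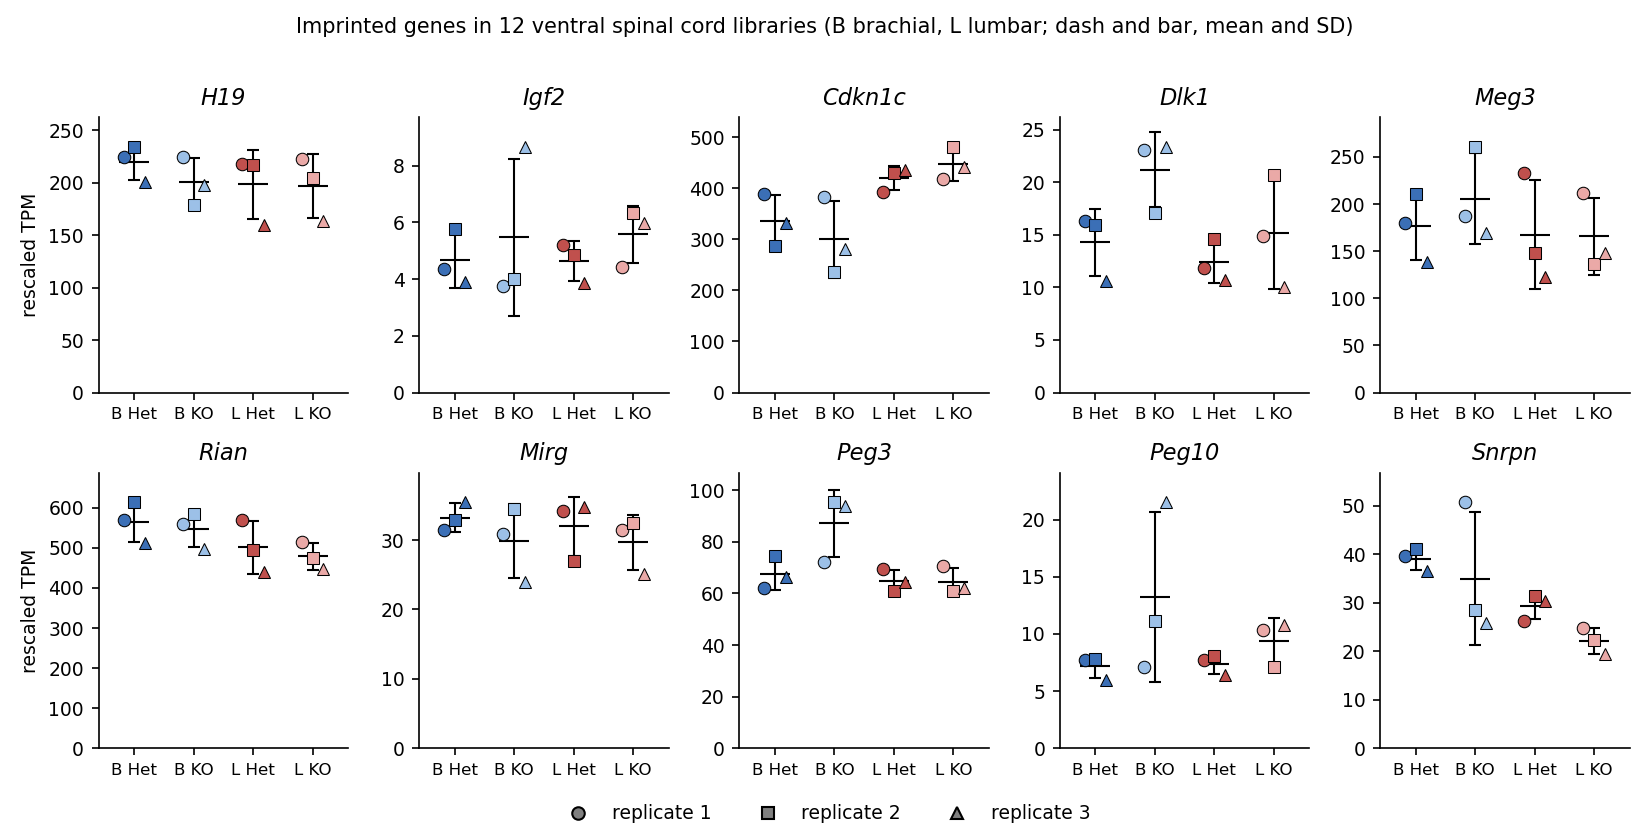
Rescaled TPM of the 10 genes (vertical axes, each from 0) in the 12 libraries by group (horizontal axis; B, brachial; L, lumbar), with the mean and SD of each group of 3 as dash and bar and the marker shape giving the replicate number. The 6 lumbar *Cdkn1c* points (392 to 481 TPM) lie above the 6 brachial points (236 to 388 TPM), *Snrpn* is lowest in the lumbar KO group, and 1 brachial KO library carries the highest *Igf2* and *Peg10*.

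Between levels, *Cdkn1c* was higher and *Snrpn* lower in lumbar than in brachial tissue, and no other of the 10 genes passed an adjusted p of 0.05. That is 2 of 10, where 18.9% of all 16706 genes tested passed, 8.65% higher and 10.3% lower at the lumbar level, so the share of imprinted genes called was close to that of all genes. The comparison asks which of these genes differ along the rostrocaudal axis of the limb-innervating cord, and it used all 12 libraries with genotype as a covariate. In a bulk sample fewer cells that express a gene and less RNA per cell cannot be told apart. The median difference of the 10 genes was −0.17, beside 0.00 over all genes tested, and 8 of the 10 had values below 0.

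*Cdkn1c* encodes p57, an inhibitor of cyclin-dependent kinases that is made from the maternal copy and that restrains growth as cells leave the cell cycle. It read 388, 286 and 333 TPM in the brachial Het libraries and 383, 236 and 281 TPM in the brachial KO libraries. In the lumbar libraries it read 392, 430 and 435 TPM in Het and 417, 481 and 441 TPM in KO. All 6 lumbar libraries lay above all 6 brachial ones, a pattern that 3.38% of all genes tested showed in this direction. The log2 difference was 0.46 (SE 0.11, adjusted p = 0.0132, limma), and the exact two-sided permutation test over 6 and 6 libraries gave p = 0.00216, the smallest it can give. Without brachial KO replicate 2, the lowest library, it was 0.38 (adjusted p = 0.022). Omitting single libraries gave adjusted p from 0.00697 to 0.0373, and the difference was 0.33 in Het libraries alone (adjusted p = 0.157) and 0.60 in KO libraries alone (adjusted p = 0.0889). Neither of the 2 other Cip/Kip inhibitor genes was higher at the lumbar level. *Cdkn1b* (p27) gave −0.10 (SE 0.08, adjusted p = 0.419), and *Cdkn1a* (p21), at a mean of 1.20 TPM, fell by 0.64 (SE 0.19, adjusted p = 0.0326). With quantile normalization *Cdkn1a* did not pass, and as deposited both passed as lower. The ratio of *Cdkn1c* to *Cdkn1b* TPM within a library was 4.08 to 5.07 (median 4.74) in brachial and 6.59 to 7.41 (median 6.80) in lumbar tissue, a description with no test, since the pair was set side by side after the *Cdkn1c* values were seen.

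*Snrpn* encodes SmN, a neuronal variant of the Sm protein SmB that takes part in the spliceosome, and is made from the paternal copy. Its levels were 39.7, 41.1 and 36.6 TPM in brachial Het, 50.7, 28.4 and 25.8 TPM in brachial KO, 26.2, 31.3 and 30.4 TPM in lumbar Het, and 24.8, 22.3 and 19.4 TPM in lumbar KO libraries. The Het groups of the levels did not overlap, whereas brachial KO replicates 2 and 3 lay within the range of the lumbar libraries. The lumbar minus brachial difference was −0.51 (SE 0.14, adjusted p = 0.0246, limma; exact two-sided permutation p = 0.0260). It was also beyond the study's threshold of 0.5 (log2) with an unadjusted p under 0.05, which 6.07% of all genes met in this direction. The call was lost without brachial Het replicate 2 (adjusted p = 0.0541) or without lumbar KO replicate 3 (adjusted p = 0.0579), and −0.36 to −0.58 was the range over all libraries left out. *Snurf*, encoded upstream on the same transcript, and *Snhg14*, the long noncoding RNA that runs antisense to *Ube3a*, overlap the annotated *Snrpn* gene, and how StringTie divided reads among them is uncertain. *Snhg14* was lower too, by 0.50 (adjusted p = 0.00557), with no overlap between levels (46.1 to 73.1 TPM brachial, 32.6 to 41.9 TPM lumbar; 4.96% of genes were without overlap in this direction), and *Snurf* gave −0.48 (adjusted p = 0.163). With *Snrpn* and *Snurf* summed, the difference was −0.50 (adjusted p = 0.0347).

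The 8 genes listed beside *Snrpn* were the other Sm core genes, which encode widely expressed Sm proteins, and *Snrpb2*, which does not encode an Sm protein. Of these 8, 7 had values above 0, 5 were higher at the lumbar level and none lower (*Snrpd3* gave −0.06). The 5 were *Snrpb2* (0.43), *Snrpe* (0.39), *Snrpb* (0.32), *Snrpg* (0.29) and *Snrpd1* (0.25), with adjusted p between 0.00858 and 0.0454 (limma). Of all genes 8.65% were called higher. All 5 kept a value above 0 as deposited, where *Snrpb2*, *Snrpe* and *Snrpb* passed. *Snrpb*, which encodes SmB, rose from 196 ± 20.0 to 245 ± 23.6 TPM (SD, n = 6 each). Within a library the ratio of *Snrpb* to *Snrpn* TPM was 3.89 to 6.95 (median 5.79) in brachial and 7.80 to 13.3 (median 8.90) in lumbar tissue, and the highest ratio was that of lumbar KO replicate 3. The ratio is given as a description, as for *Cdkn1c*. In brachial KO libraries 7 of these 8 genes had values below 0 (median −0.27), 3 with an unadjusted p under 0.05 (limma), which 14.1% of all genes met. In lumbar KO libraries 5 of the 8 had values above 0 (median 0.01). None passed an adjusted p of 0.05 in either genotype comparison.

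**Figure D2:**
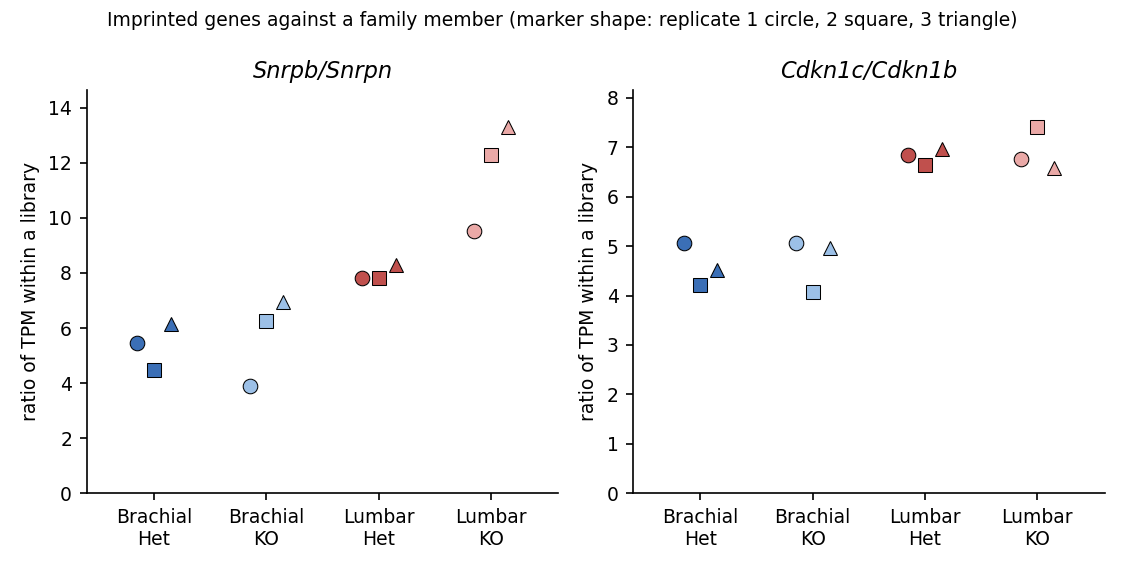
Ratio of *Snrpb* to *Snrpn* TPM (left) and of *Cdkn1c* to *Cdkn1b* TPM (right) in each library (vertical axes from 0) by group (horizontal axis), 1 point per library. Both ratios separate the 6 lumbar from the 6 brachial libraries (7.80 to 13.3 against 3.89 to 6.95, and 6.59 to 7.41 against 4.08 to 5.07).

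Cell type markers also differed between levels, and their part in these differences was not tested. The counts called below stand beside 10.3% of all genes called lower and 8.65% called higher at the lumbar level. The summed MN markers were 392 to 479 TPM in brachial and 154 to 264 TPM in lumbar libraries, with 2 of 6 called lower (*Prph*, *Slc5a7*). *Prph*, at 228 to 319 TPM in brachial and 30.7 to 76.3 TPM in lumbar libraries, carried this gap, and without it, a choice made after its values were seen, the sums overlapped (147.8 to 164.5 and 119 to 187 TPM). The MN genes *Mnx1* (0.24), *Chat* (0.15) and *Isl1* (0.08) had values above 0 and did not pass, and the median of the 6 was −0.01. Progenitor markers summed to 1787 to 2649 TPM and 1667 to 2110 TPM, with *Sox2*, *Hes5* and *Nes* higher and *Fabp7* and *Olig2* lower at the lumbar level. *Fabp7* made up most of these sums (mean log2 of (TPM + 0.1) 10.7, next *Nes* at 7.58). Endothelial markers (3 of 7 lower, 70.2 to 93.8 against 58.3 to 74.4 TPM), pericyte markers (4 of 4 lower, 38.1 to 53.9 against 19.4 to 31.1 TPM), mesenchyme markers (10.4 to 14.4 against 7.98 to 10.3 TPM, with 5 of 10 markers tested, 4 of those lower, and *Lum* and *Tbx18* under 0.1 TPM) and microglia markers (3 of 5 lower, 12.3 to 22.4 against 6.31 to 13.3 TPM) included members called lower at the lumbar level, with overlapping sums for endothelium and microglia. The pan-neuronal sums overlapped (4586 to 5493 and 4131 to 5344 TPM), with all 6 markers below 0 and *Snap25* called lower (−0.46, adjusted p = 0.000391). Of the Schwann cell and crest markers *Erbb3* was lower (−1.65, adjusted p = 0.00388), and of the muscle markers *Mylpf* was higher (0.51, adjusted p = 0.046), though not as deposited. No tested marker of red blood cells (6), floor plate (5) or cartilage (1) was called (limma; at an unadjusted p under 0.05, 1 was higher, the floor plate gene *Shh*).

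The other 8 genes gave smaller or less certain level differences. *Peg3* gave −0.24 (SE 0.09, adjusted p = 0.0892) and *Rian* −0.18 (SE 0.07, adjusted p = 0.101), while *Dlk1* gave −0.36 (SE 0.18, adjusted p = 0.182) and *Meg3* −0.21 (SE 0.17, adjusted p = 0.442). *H19* (−0.09, SE 0.10), *Peg10* (−0.16, SE 0.22), *Mirg* (−0.03, SE 0.10) and *Igf2* (0.06, SE 0.19) had adjusted p from 0.557 to 0.874. Without lumbar Het replicate 1, *Peg3* (−0.28, adjusted p = 0.0487) and *Rian* (−0.23, adjusted p = 0.0338) passed as well.

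**Figure D3:**
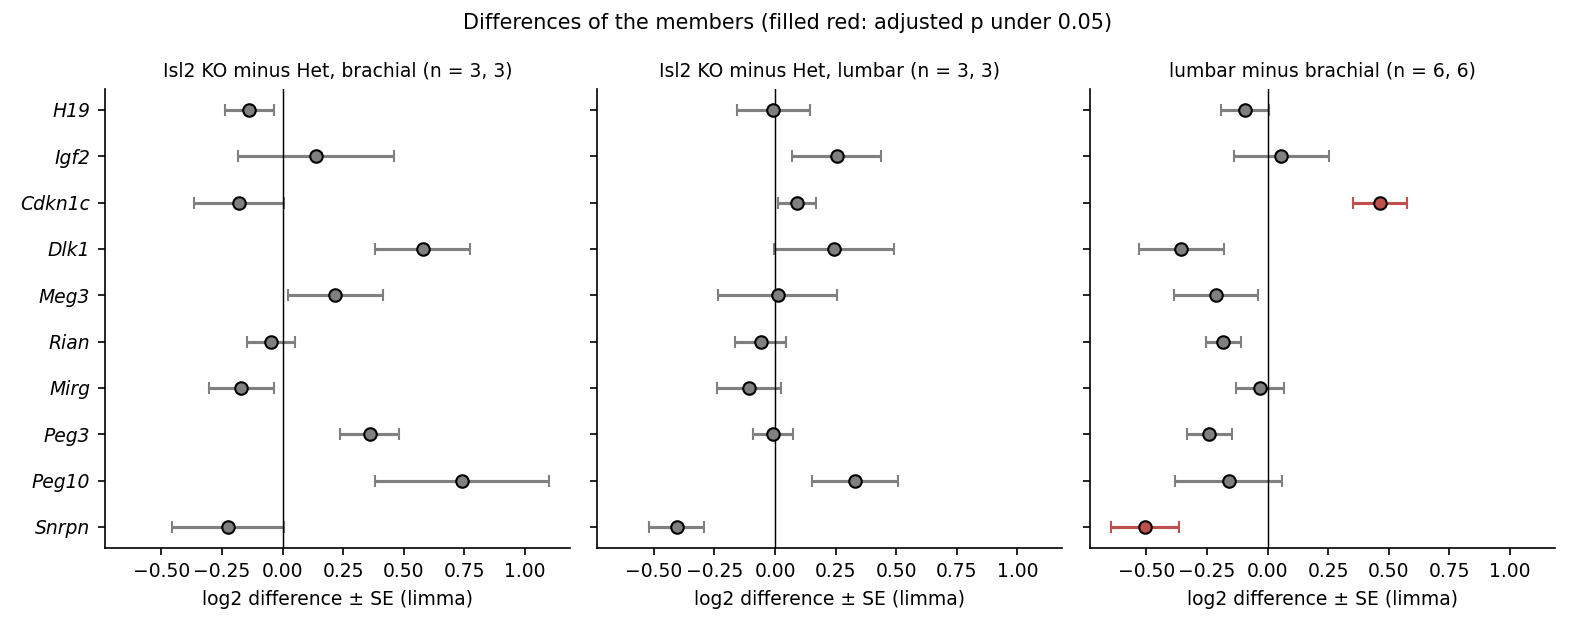
Log2 difference with its SE (horizontal axes, limma) of the 10 genes (vertical axis) for *Isl2* KO minus Het in brachial and in lumbar tissue (3 against 3 libraries) and for lumbar minus brachial (6 against 6), with red for an adjusted p under 0.05. Red points appear only between levels, at 0.46 for *Cdkn1c* and −0.51 for *Snrpn*, and the widest error bars belong to *Peg10* and *Igf2* at the brachial level.

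*Isl2* genotype changed none of the 10 genes at an adjusted p under 0.05 at either level. The comparison asks whether loss of *Isl2* alters these genes, and over all genes 0.00596% of 16780 passed in brachial (1 gene) and 0% of 16618 in lumbar tissue. At an unadjusted p under 0.05, *Dlk1* and *Peg3* were higher in brachial KO and *Snrpn* lower in lumbar KO libraries, where 14.1% (brachial) and 4.87% (lumbar) of all genes met that p. With 3 libraries against 3, the exact permutation test cannot go below p = 0.1. Marker sums also differed by genotype in brachial tissue, and their part in the values below was not tested. The MN sum was 455 to 479 TPM in Het and 392 to 448 TPM in KO (without *Prph* 152 to 164 and 147.8 to 164.5 TPM) and the pan-neuronal sum 4919 to 5493 and 4586 to 4726 TPM, although 3 of 6 markers of each list had values above 0. The progenitor sum was 2352 to 2649 TPM in Het and 1787 to 2317 TPM in KO, also without overlap, with 4 of 6 markers below 0. *Fabp7* made up most of it (mean log2 of (TPM + 0.1) 10.9, next *Nes* at 7.38) and gave −0.29. *Nes* (−0.03), *Sox2* (−0.04) and *Hes5* (−0.09) were near 0, and *Pax6* (0.18) and *Olig2* (0.22) lay above it. Red blood cell markers (6 of 6 above 0, 1949 to 3488 and 2780 to 6013 TPM) and floor plate markers (5 of 5 above 0, 182 to 198 and 198 to 240 TPM) had overlapping sums, and no marker of these 5 lists passed an adjusted p of 0.05 (limma; at an unadjusted p under 0.05, 2 higher and 1 lower pan-neuronal and 2 lower MN markers). Endothelial sums overlapped too (88.5 to 93.8 and 70.2 to 90.9 TPM), with 5 of 7 markers below 0, among them *Cldn5* (−0.39, adjusted p = 0.354, limma; unadjusted p = 0.0260). Of 3 sensory neuron markers tested 2 lay below 0, and *Prdm12* (0.98, adjusted p = 0.354, limma; unadjusted p = 0.0461) was past the study's threshold, as were 2.34% of all genes in this direction.

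*Dlk1* encodes a transmembrane protein with EGF repeats, related to Notch ligands, that is made from the paternal copy and that controls differentiation of many cell types. It read 16.3, 15.9 and 10.6 TPM in brachial Het and 23.1, 17.1 and 23.4 TPM in brachial KO libraries, so that every KO library lay above every Het library, as for 10.2% of all genes in this direction. The log2 difference was 0.58 (SE 0.19, adjusted p = 0.354, limma; unadjusted p = 0.0192), past the study's threshold, which 2.34% of genes met in this direction. It was 0.38 without brachial Het replicate 3, 0.51 without brachial KO replicate 1, 0.50 without brachial KO replicate 3 and 0.43 by coverage, and past that threshold in none of these. At the lumbar level the groups overlapped (11.9, 14.6 and 10.7 against 14.9, 20.7 and 10.0 TPM; 0.24, SE 0.25). Of the 10 Notch ligands and receptors tested beside it, none passed an adjusted p of 0.05 in either genotype comparison (limma). At an unadjusted p under 0.05, 2 were higher in brachial and 3 higher in lumbar KO, beside 14.1% and 4.87% of all genes in either direction. Between levels the ligand gene *Dll1* was higher (0.48, adjusted p = 0.00212) and *Dlk2*, the relative of *Dlk1*, lower (−0.65, adjusted p = 0.0127) in lumbar tissue, beside 8.65% and 10.3% of all genes.

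*Peg3* encodes a large zinc finger protein of the paternal copy with roles in growth and maternal care. It read 62.2, 74.4 and 66.3 TPM in brachial Het and 72.2, 95.3 and 94.1 TPM in brachial KO libraries, with replicate 1 of the KO inside the Het range (log2 difference 0.36, SE 0.12, adjusted p = 0.354; unadjusted p = 0.0202; 0.29 without KO replicate 2, which held the highest value). The lumbar groups overlapped at 60.8 to 69.5 and 60.8 to 70.7 TPM (−0.01, SE 0.08). The difference between these genotype effects was −0.37 (SE 0.16, adjusted p = 0.801, limma interaction term; unadjusted p = 0.0382, which 4.44% of genes met). It was the only one of the 10 with an unadjusted p under 0.05 there, and 0% of 16706 genes passed the adjusted p.

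*Peg10*, a paternal gene derived from a retrotransposon and needed in the placenta, read 7.72, 7.77 and 5.99 TPM in brachial Het and 7.11, 11.1 and 21.5 TPM in brachial KO libraries. One library, brachial KO replicate 3, thus carried most of the difference of 0.74 (SE 0.36, adjusted p = 0.369), which was 0.32 without it. At the lumbar level it read 7.69, 8.03 and 6.39 TPM in Het and 10.3, 7.12 and 10.8 TPM in KO (0.33, SE 0.18, adjusted p = 0.999).

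*Snrpn* was lower in every lumbar KO than in every lumbar Het library, as for 5.35% of genes in this direction, by 0.41 (SE 0.11, adjusted p = 0.999; unadjusted p = 0.0073). *Snurf* was the same way round, at 4.36, 7.40 and 5.02 TPM in Het and 3.87, 3.66 and 3.14 TPM in KO (−0.61, SE 0.21, adjusted p = 0.999; unadjusted p = 0.0201), which is past the study's threshold that 0.788% of genes met in this direction. In brachial tissue *Snrpn* gave −0.23 (SE 0.23), with 1 KO library above and 2 below all Het libraries. It was −0.53 (adjusted p = 0.0889, limma), past the study's threshold, without KO replicate 1, −0.11 without KO replicate 2 and −0.04 without KO replicate 3. The summed MN markers were 205 to 264 TPM in lumbar Het and 154 to 201 TPM in lumbar KO libraries, and without *Prph* (43.6 to 76.3 against 30.7 to 40.6 TPM) they overlapped (141 to 187 and 119 to 170 TPM). All 6 MN markers had values below 0 in lumbar KO (median −0.33), none with an adjusted p under 0.05 (limma). *Prph* (−0.77), *Slc5a7* (−0.34) and *Isl1* (−0.31) had an unadjusted p under 0.05, and *Prph*, *Slc5a7* and *Chat* (−0.40) did not overlap between genotypes. The 6 pan-neuronal markers also had values below 0 (median −0.12; sums 4647 to 5344 and 4131 to 4670 TPM), and the 6 red blood cell markers values above 0 (median 0.58; 1934 to 3146 and 2568 to 4214 TPM). The red blood cell gene *Hba-x* (0.69, past the study's threshold) and the progenitor genes *Sox2* (0.22) and *Hes5* (0.25) had an unadjusted p under 0.05, with no adjusted p under 0.05 (limma). Of all genes 4.87% met that unadjusted p. The part of these markers' cells in the *Snrpn* values was not tested.

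*Igf2*, the paternal fetal growth factor that signals through *Igf1r*, was low in every library. It read 4.35, 5.76 and 3.90 TPM in brachial Het, 3.77, 4.0 and 8.67 TPM in brachial KO, 5.22, 4.85 and 3.86 TPM in lumbar Het, and 4.43, 6.34 and 5.97 TPM in lumbar KO libraries. The highest value came from brachial KO replicate 3, and without it the brachial difference turned from 0.14 (SE 0.32) to −0.24 (SE 0.19). The lumbar difference was 0.25 (SE 0.18, adjusted p = 0.999), with overlapping groups. *H19*, the maternal noncoding RNA that shares enhancers with *Igf2*, read 224, 234 and 201 TPM in brachial Het, 224, 179 and 198 TPM in brachial KO, 218, 217 and 160 TPM in lumbar Het, and 223, 205 and 164 TPM in lumbar KO libraries, and its groups overlapped in each comparison. Per transcript length *H19* exceeded *Igf2* by 22.8 to 59.4 times within a library (median 43.2), and the lowest ratio was again that of brachial KO replicate 3. In the total RNA libraries the hairpin *Mir675*, which lies inside *H19*, was listed at 0.24 to 0.41 TPM, and the antisense transcript *Igf2os* at 0.20 TPM on average.

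The IGF genes around *Igf2* showed level differences of their own. Of the 13 tested of 15, 3 were higher and 1 lower at the lumbar level, beside 8.65% and 10.3% of all genes. As deposited *Igf2bp2* did not pass, which left 2 higher. The 3 higher genes were those for the IGF2 mRNA-binding proteins: *Igf2bp1* (0.83, adjusted p = 0.00339), *Igf2bp3* (0.55, adjusted p = 0.00125) and *Igf2bp2* (0.43, adjusted p = 0.00531). *Igf2bp3* ranged from 36.6 to 51.9 TPM in brachial and from 55.8 to 72.9 TPM in lumbar libraries, without overlap, as for 3.38% of all genes in this direction. The gene for the secreted binding protein *Igfbp5* fell by 0.84 (adjusted p = 0.00976) from 90.5 ± 23.4 to 50.8 ± 14 TPM (SD, n = 6 each). *Igf2* itself (0.06, SE 0.19) and the receptor genes *Igf1r* (−0.04, SE 0.17) and *Igf2r* (−0.05, SE 0.05) did not pass. In brachial tissue *Igfbp5* (0.61, SE 0.13, adjusted p = 0.354) and *Igf1r* (0.63, SE 0.25, adjusted p = 0.354) were past the study's threshold in KO, as were 2.34% of all genes in this direction, the latter with its highest value, 34.6 TPM, in replicate 3. Of the 13 IGF genes 12 had values above 0 in brachial KO (median 0.36, beside 0.00 over all genes), 4 of them with an unadjusted p under 0.05 and none with an adjusted one (limma). Of all genes 14.1% met that unadjusted p. In lumbar KO 10 of the 13 had values above 0 (median 0.07). There 1 was higher and 1 lower at an unadjusted p under 0.05, which 4.87% of all genes met, and none passed an adjusted one (limma).

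The maternal noncoding RNAs of the *Dlk1* cluster were abundant and unequal. *Meg3*, a nuclear long noncoding RNA, *Rian*, the host of box C/D small nucleolar RNAs (snoRNAs), and *Mirg*, the host of a microRNA group, follow *Dlk1* on chromosome 12 and on the same strand. *Meg3* read 180, 211 and 139 TPM in brachial Het, 187, 261 and 170 TPM in brachial KO, 233, 148 and 122 TPM in lumbar Het, and 212, 137 and 149 TPM in lumbar KO libraries, and its spread within groups exceeded every genotype difference (0.22, SE 0.20, brachial; 0.01, SE 0.25, lumbar). Without brachial KO replicate 2, the highest *Meg3* library, the brachial difference was 0.03. *Rian* ranged from 439 to 614 TPM and *Mirg* from 24.0 to 35.4 TPM. The ratio of *Rian* to *Meg3* within a library was 2.24 to 3.69, that of *Rian* to *Mirg* 12.7 to 20.7, and that of *Meg3* to *Dlk1* 6.60 to 19.6, and each ratio overlapped between the levels. The genotype differences of *Rian* (−0.05, SE 0.10, brachial; −0.06, SE 0.11, lumbar) and *Mirg* (−0.17, SE 0.13; −0.11, SE 0.13) were of the size of their errors.

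The tables list 60 microRNA and 19 snoRNA genes from *Dlk1* to *Mirg*. Reads of a hairpin inside a host transcript can belong to either, and mature microRNAs are shorter than the fragments of a total RNA library, so these values are not levels of mature microRNAs. Of the 60 hairpins 44 passed the filter of 0.5 TPM, and 3 were lower at the lumbar level, *Mir127* (−1.38, adjusted p = 0.0261), *Mir154* (−0.94, adjusted p = 0.0444) and *Mir544* (−0.41, adjusted p = 0.0497), and none higher. That share is below the 10.3% of all genes called lower. *Mir127* averaged 0.69 TPM (0.09 to 1.97), near the filter. It fell under the filter in the lumbar libraries alone, so it was tested only through its brachial values. *Mir154*, whose mature sequences are printed above, averaged 3.77 TPM, and *Mir453* and *Mir496a*, whose products share the seed GGUUGCC, averaged 13.3 and 6.25 TPM and gave −0.09 (SE 0.23) and 0.02 (SE 0.26). All 19 snoRNAs passed the filter and none was called, and the 30-base snoRNA entry *AF357359* was the highest at 385 TPM. *Rtl1*, the paternal retrotransposon-derived gene of this cluster, averaged 0.37 TPM and was not tested, and antisense transcripts overlap it.

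**Figure D4:**
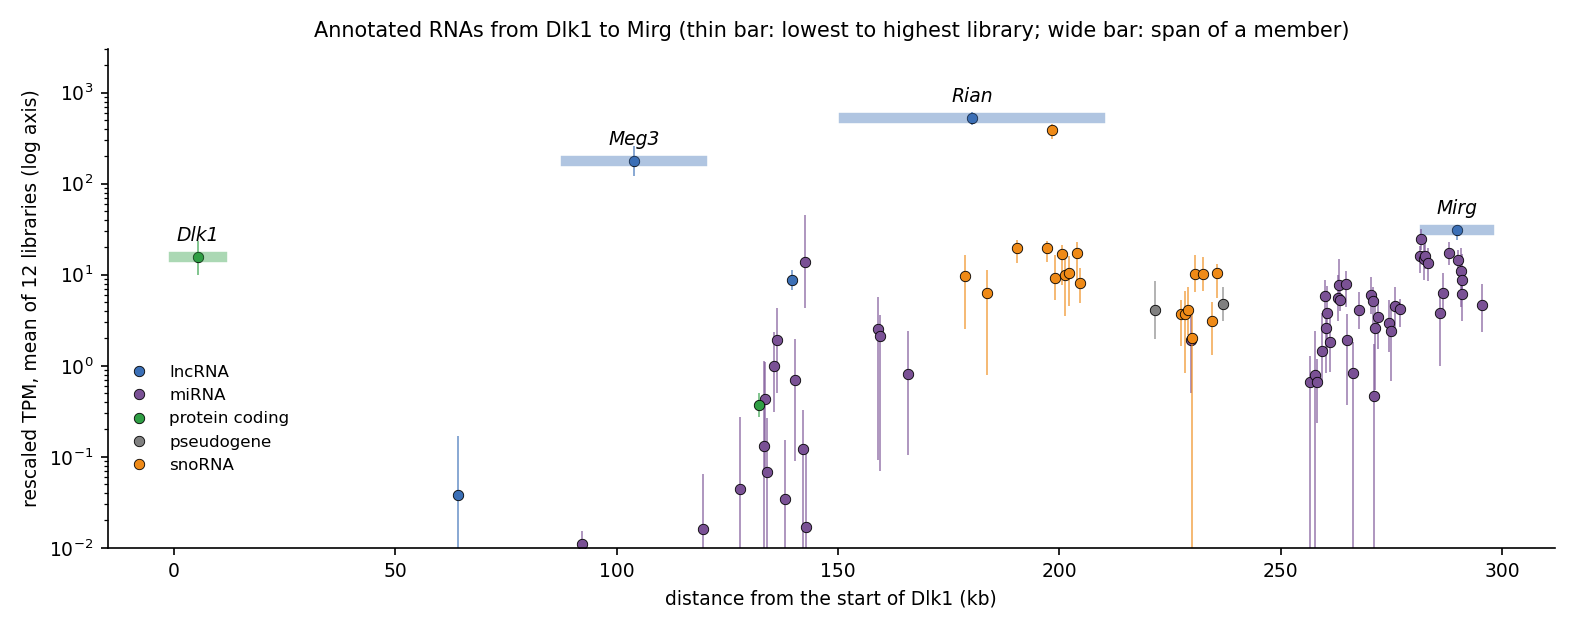
Mean rescaled TPM over 12 libraries (vertical log axis; thin bars, lowest to highest library) of annotated RNAs with a mean over 0.01 TPM against distance from the start of *Dlk1* in kilobases (horizontal axis), coloured by gene type, with wide bars for the spans of the 4 genes described. *Rian* at 523 TPM and *Meg3* at 179 TPM stand above the hairpins, whose means reach 24.8 TPM, and 1 snoRNA entry at 385 TPM stands above the others.

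Other imprinted genes were counted over lists of genes for which imprinting is established, 45 in all. Of the 35 tested between levels 3 were higher (8.57%) and 10 lower (28.6%) at the lumbar level, beside 8.65% and 10.3% of all genes, with a median of −0.09 beside 0.00. Without rescaling it was 2 higher and 11 lower of 36, and with quantile normalization again 3 and 10. The lists sort genes by the copy reported as active, which was not checked in this tissue and need not hold for every tissue or transcript. Among genes listed under the maternal copy 0 of 11 were higher and 3 lower, *Blcap* (−0.24), *Asb4* (−0.55) and *Ppp1r9a* (−0.44). Among genes listed under the paternal copy 2 of 21 were higher, *Peg12* (0.50) and *Slc38a4* (0.66), and 6 lower, *Usp29* (−0.39), *Snhg14* (−0.50), *Zrsr1* (−0.43), *Inpp5f* (−0.28), *Nap1l5* (−0.34) and *Nnat* (−0.21). Of the 3 tested genes whose active copy depends on tissue or transcript, *Grb10*, an adaptor that dampens insulin and IGF receptor signalling, was higher (0.64, adjusted p = 0.00058) and *Gnas*, which encodes the stimulatory G protein alpha subunit, lower (−0.43, adjusted p = 0.00102). *Grb10* read 93.4 to 138 TPM in brachial and 158 to 210 TPM in lumbar libraries, and *Gnas* 474 to 582 and 334 to 434 TPM, each without overlap. Of all genes 3.38% were without overlap as higher and 4.96% as lower.

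Within clusters, genes that passed lay beside genes that did not, and differences between neighbours were not tested. *Usp29*, which shares the *Peg3* domain, was lower at the lumbar level in all libraries (25.4 to 34.6 against 38.7 to 43.6 TPM, adjusted p = 0.0026), as were 4.96% of all genes, and *Peg3* gave −0.24 (adjusted p = 0.0892). In the *Peg10* domain *Asb4* and *Ppp1r9a* were lower, and *Sgce*, which shares a promoter region with *Peg10*, gave 0.13 (SE 0.05, adjusted p = 0.125). In the *Snrpn* domain *Snrpn* and *Snhg14* were lower and *Peg12* higher, while *Ndn* (0.17), *Magel2* (0.12), *Mkrn3* (0.07) and *Ube3a* (0.00) had adjusted p from 0.254 to 0.981. In the domain of *Cdkn1c*, *Kcnq1ot1*, the paternal noncoding RNA that silences it in cis, gave 0.18 (SE 0.21, adjusted p = 0.590) and *Kcnq1* 0.26 (SE 0.23, adjusted p = 0.470). In the genotype comparisons none of the 37 (brachial) and 35 (lumbar) other imprinted genes tested passed an adjusted p (limma; at an unadjusted p under 0.05, 1 higher and 1 lower in brachial KO and 1 higher and 2 lower in lumbar KO, beside 14.1% and 4.87% of all genes). Past the study's threshold were *Kcnq1ot1* (0.78, SE 0.28, adjusted p = 0.354) in brachial KO, where 2.34% of all genes were higher by it, and *Snurf* in lumbar KO, where 0.788% were lower.

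**Figure D5:**
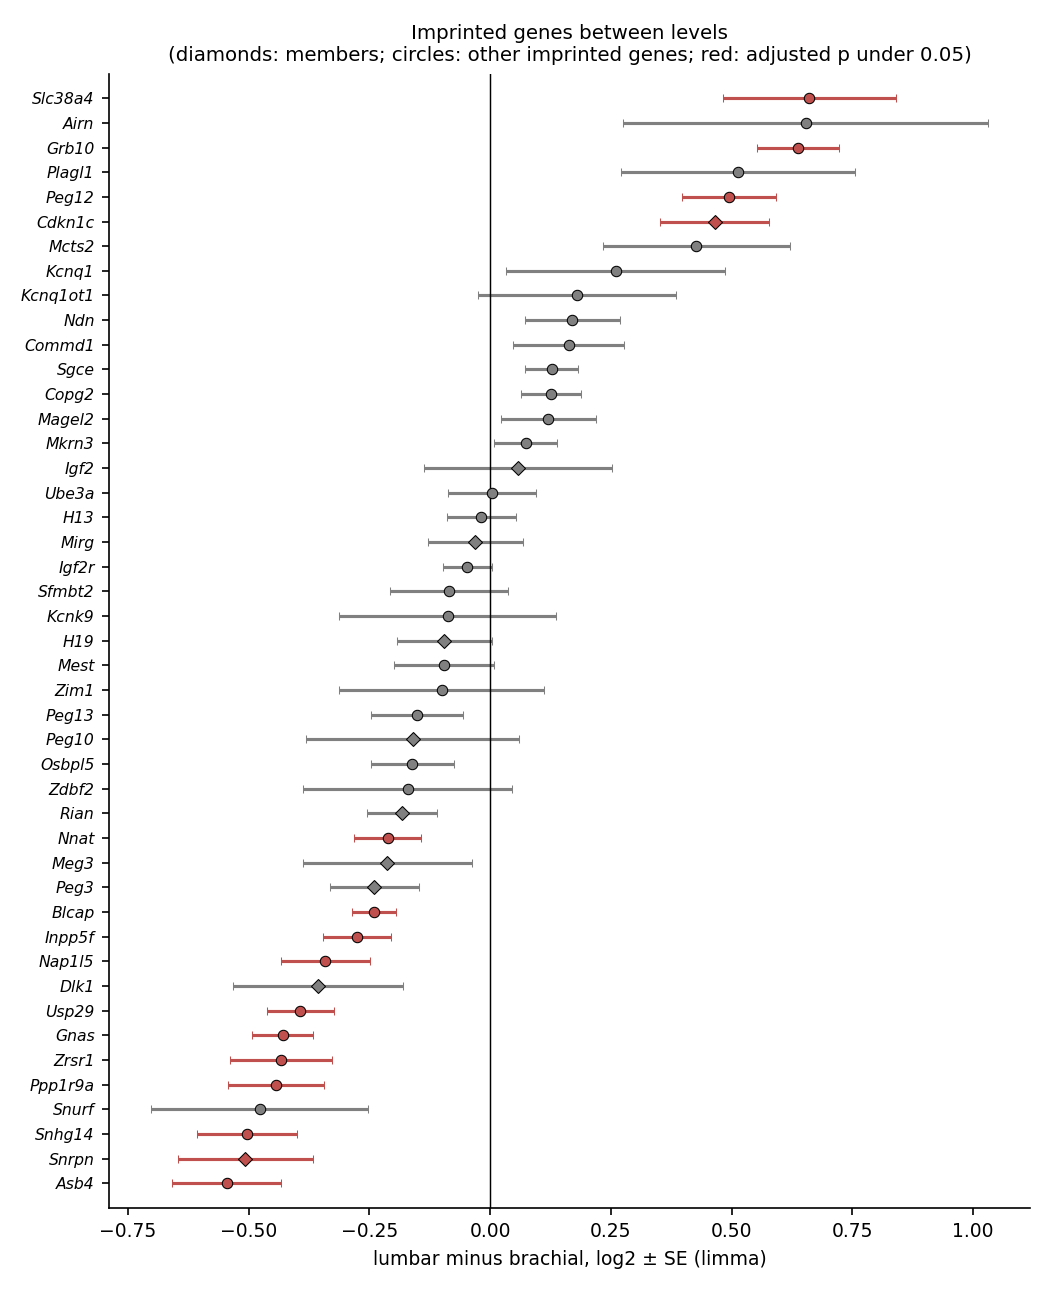
Lumbar minus brachial log2 difference with its SE (horizontal axis, limma) of the 10 genes (diamonds) and of 35 other imprinted genes (circles), sorted by difference (vertical axis), with red for an adjusted p under 0.05. *Cdkn1c* stands with *Grb10*, *Peg12* and *Slc38a4* among the called genes above 0, and *Snrpn* with *Snhg14* and *Asb4* at the low end.

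The genes whose levels followed *H19*, *Igf2*, *Meg3* and *Peg3* most closely over the 12 libraries were picked as the 5 of highest Pearson correlation (log2 scale) among 11034 genes with a mean of at least 5 TPM, so high values are given by the choice, and the libraries share level and genotype groups. For *H19* they were *Cacng7* (0.92), *Tcea2* (0.90), *Tlnrd1*, *Maz* and *Tada3*, and for *Igf2* they were *Slc9a8* (0.90), *Dpy19l4* (0.88), *Gm2574*, *Gm7336* and *Mtr*. For *Meg3* they were *Rfng* (0.94), *LOC115489601* (0.92), *Zfp57* (0.91), *Fcho1* and *Mapkbp1*, of which *Zfp57* encodes a zinc finger protein that protects methylation at imprinted loci. For *Peg3* they were *Herc2* (0.96), *Slitrk1* (0.95), *Vcan*, *Atp6v0a1* and *Amer1*. None of the 20 was another of the 10 genes.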

How the data were processed

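Total RNA of 12 ventral spinal cord samples was sequenced after ribosomal RNA depletion. According to the methods and processing notes, the authors trimmed reads (Trimmomatic 0.38), mapped them to mm10 (HISAT2 2.1.0, Bowtie2 2.3.4.1) and estimated abundance with StringTie 2.1.3b; use of strand there is not given in the sources used here. The deposited TPM values are scaled to 1 fixed total per library. The deposited FPKM values are scaled to length and mapped fragments, and the deposited coverage values are mean read depth per base of a gene. The tables hold no counts, so the authors' DESeq2 test could not be redone here, nor the count tests planned as alternatives.

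Symbols came from RefSeq (GRCm38.p6) for 45679 of 45777 gene identifiers, 96.2% with the same coordinates. TPM was divided by size factors (median of ratios). After addition of 0.1, the log2 values went into limma 3.58.1 (R 4.3.3, lmFit, eBayes with trend) over genes with a mean of at least 0.5 TPM, adjusted by Benjamini-Hochberg over all genes tested. This replaces the count test of the paper. *Isl2* KO was compared with Het in the 6 libraries of each level, and levels and the difference of genotype effects in all 12. All 10 genes passed the filter in each fit. Exact permutation tests were run for the 10 genes in 3 comparisons, 30 in all. The study's threshold is a log2 difference beyond 0.5 with an unadjusted p under 0.05. Depth came from the ratio of coverage to FPKM. No counting error can be read from these values.

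Alternatives were pseudocounts of 0.001 and 1, no filter or one at 1 TPM, FPKM, coverage, values as deposited, quantile normalization, no trend, a replicate block, all libraries in one fit, 1 genotype alone, and leaving out each library. Embryo sex as a term, and *Snrpn* summed with *Snurf*, were added after seeing the data. The members, lists and tests were chosen with earlier results of these data known. Named genes are the 10, *Isl2*, *Snrpb*, list genes with an adjusted p under 0.05 or past the study's threshold (at most 6 per list and comparison), and the 5 genes most correlated with *H19*, *Igf2*, *Meg3* and *Peg3*; others (*Cdkn1b*, *Kcnq1*, *Ndn*, *Magel2*, *Mkrn3*, *Ube3a*, *Sgce*, *Igf2r*, *Snrpd3*, marker genes that did not pass, and the RNAs overlapping or between the 10) were chosen after their values were seen. Python 3.11.15, pandas 2.3.3 and matplotlib 3.10.9 were used.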

Additional observations from a re-analysis of the deposited data

How the results depend on the processing

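Of 484 values of the 10 genes under other settings, 467 kept their direction and their side of the threshold. As deposited, without rescaling, the median of all genes was 0.16 for brachial KO, −0.13 between levels and −0.17 for the difference of genotype effects. In the main fits these medians were 0.00, 0.00 and −0.01. As deposited, signs turned for *H19* (0.0231) and *Rian* (0.114) in brachial KO, for *Igf2* between levels (−0.0694), and for *H19* (−0.024), *Igf2* (−0.036) and *Mirg* (−0.0905) in the difference of genotype effects. Quantile normalization turned *Rian* in brachial KO (0.124) and *H19* in lumbar KO (0.00968) and brought *Rian* between levels to −0.34 (adjusted p = 0.0315), and embryo sex as a term turned *Meg3* in lumbar KO (−0.0198). Between levels, Het libraries alone gave −0.000766 for *Igf2* and 0.0442 for *Peg10*, and KO libraries alone 0.00188 for *Mirg*. The cause was not tested for any of these.

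The 2 genes called between levels became 1 without a filter (*Cdkn1c*; *Snrpn* had an adjusted p of 0.0535 among more genes tested), 1 in Het libraries alone (*Snrpn*) and 0 in KO libraries alone, where 3 libraries per level were left. The 1 gene past the study's threshold between levels became 0 with a pseudocount of 1, with a sex term and in Het libraries alone, and 2 in KO libraries alone (*Cdkn1c*, *Snrpn*). The 1 such gene in brachial KO, *Dlk1*, became 0 by coverage, 3 as deposited (with *Peg3* and *Peg10*) and 2 with all 12 libraries in one fit (with *Peg10*).

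Leaving out each library gave 1 to 4 genes called between levels (4 without lumbar Het replicate 1, adding *Peg3* and *Rian*), 0 to 2 past the study's threshold there (0 without lumbar KO replicate 2 or 3, 2 without brachial Het replicate 1), 0 to 2 in brachial KO (0 without Het replicate 3 or KO replicate 3, and 2 without KO replicate 1, *Peg10* and *Snrpn*) and 0 to 1 in lumbar KO (*Peg10* without KO replicate 2, *Dlk1* without KO replicate 3), and 0 at an adjusted p under 0.05 in each genotype comparison. Between levels, without brachial KO replicate 1, the 1 gene past the study's threshold was *Cdkn1c* and no longer *Snrpn* (−0.363). Signs turned in 37 of 360 values. These ranges were −0.241 to 0.349 for *Igf2* and −0.115 to 0.0215 for *Rian* in brachial KO. In lumbar KO they were −0.154 to 0.121 for *H19*, −0.189 to 0.275 for *Meg3*, −0.152 to 0.0367 for *Rian*, −0.223 to 0.00769 for *Mirg*, −0.00954 to 0.509 for *Dlk1* and −0.0753 to 0.0404 for *Peg3*. For the difference of genotype effects they were −0.0167 to 0.259 for *H19*, −0.094 to 0.496 for *Igf2*, −0.405 to 0.0581 for *Meg3*, −0.105 to 0.0834 for *Rian*, −0.0833 to 0.178 for *Mirg*, −0.78 to 0.0126 for *Peg10* and −0.366 to 0.12 for *Snrpn*. Between levels they were −0.0425 to 0.22 for *Igf2*, −0.0991 to 0.0251 for *Mirg* and −0.302 to 0.0498 for *Peg10*.

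Deviations of same-numbered Het and KO libraries correlated by 0.01 to 0.228 (brachial) and −0.208 to 0.145 (lumbar), and those of same-numbered brachial and lumbar libraries, which could share an embryo, by −0.022, 0.197 and 0.338 (Het) and 0.03, −0.213 and 0.071 (KO). The same-sex pairs among the latter were Het 2 and 3 and KO 1. Not every pair exceeded 0.1, so the numbers were not taken to pair libraries. With a replicate block (between levels, genotype and number), *Cdkn1c* kept an adjusted p of 0.0391 and *Snrpn* of 0.0132 between levels, *Dlk1* stayed past the study's threshold in brachial KO, and no call of the 10 genes changed. The lack of read counts and the unknown sharing of embryos between levels limit these results.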
